A study of Mus musculus with 4 samples.

Results

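Embryonic mammary bud genes are described here as 8 genes chosen by name, Tbx2, Tbx3, Msx1, Msx2, Pthlh, Pth1r, Eda and Edar, out of 21883 mouse genes counted in the same way. For each gene, the deposited reads of open chromatin that fell on the gene body and 2 kb on either side were counted by library and by cluster of nuclei. The accessible regions near each gene, the deposited links between regions and the deposited motif scores were then read for the same 8 names.

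The study profiled single nuclei by ATAC-seq, an assay in which a transposase cuts DNA where chromatin is open. Wild-type mammary glands of CD1 mice gave 2 libraries at embryonic day 18 (fetal) and 2 libraries at 8 weeks of age (adult). The cells of all 4 libraries had been sorted as EpCAM+ and Lin-, that is, carrying an epithelial surface protein and lacking markers of other lineages. The labels call the libraries of a stage biological replicates and do not say how many animals each holds, nor the sex of the animals. Every p-value below therefore rests on 2 libraries per stage. The tests draw the variance of each feature partly from all features, and an exact permutation test of 2 against 2 libraries could not go below p = 0.333. The youngest stage is embryonic day 18, when the gland is already a small branched tree, so the bud stage itself was not sampled.

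The mammary gland starts as a bud of thickened epidermis that sinks into a condensed mesenchyme. Tbx3 and Tbx2 are T-box transcription factors, of which Tbx3 is needed for placement and growth of the bud. Msx1 and Msx2 are homeodomain transcription factors needed for the bud to progress. Pthlh encodes the secreted parathyroid hormone-related protein, which is made by bud epithelium, and Pth1r encodes its G protein-coupled receptor, which acts in the mesenchyme below. Eda encodes the TNF-family ligand ectodysplasin and Edar its receptor, whose signal runs through the adaptor Edaradd to NF-kB and sets the number and size of skin appendages and mammary buds.

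The libraries held 882 and 1695 fetal nuclei and 2465 and 2804 adult nuclei, with 6028168, 15801908, 13588107 and 19304830 reads in these nuclei. No nuclear barcode was shared between any pair of libraries. The authors deposited 14 numbered clusters, and in 13 of them between 93.0% and 100% of nuclei came from a single stage. By marker genes, clusters 1 and 8 (adult) and 4 (fetal) were basal-like, with 11, 10 and 9 of 11 basal markers raised. Clusters 3 and 7 (adult) and 9 (fetal) were luminal progenitor-like, with 7, 8 and 6 of 9 markers raised, and clusters 2 and 11 (adult) were mature luminal-like, with 7 of 9 each. Cluster 5 (fetal) had 5 of 9 luminal progenitor and 4 of 11 basal markers raised. Cluster 6 had 8 of 8 stromal markers raised and none of 3 pan-epithelial markers, and it also had 4 of 4 adipocyte, 2 of 5 endothelial and 2 of 5 immune markers raised. It was the only cluster with both stages in number, at 56 fetal and 157 adult nuclei. Clusters 10, 12, 13 and 14 are given by number only. For genes, CPM are counts scaled to the reads in gene windows. The summed level of the stromal markers was 259 and 280 CPM in the fetal and 232 and 256 in the adult libraries. That of the mature luminal markers was 422 and 477 against 834 and 890. Luminal markers were at 346 and 331 against 504 and 430, and pan-epithelial markers at 432 and 452 against 580 and 514.

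The 250 bases upstream of 4 of the start sites are printed because deposited promoter regions cover them and because they show how differently these genes are built. Sequences are from RefSeq on GRCm38.p6, all 4 genes lie on the minus strand, and each is written 5′ to 3′ on that strand. Capitals mark a match to CTTTGA, the core bound by Lef1 and Tcf proteins.
Pthlh, chr6:147264014-147264263: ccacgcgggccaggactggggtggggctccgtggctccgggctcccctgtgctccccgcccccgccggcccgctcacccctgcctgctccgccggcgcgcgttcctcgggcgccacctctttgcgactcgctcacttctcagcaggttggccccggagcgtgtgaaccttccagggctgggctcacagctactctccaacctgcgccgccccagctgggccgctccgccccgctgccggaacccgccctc
Msx2, chr13:53472781-53473030: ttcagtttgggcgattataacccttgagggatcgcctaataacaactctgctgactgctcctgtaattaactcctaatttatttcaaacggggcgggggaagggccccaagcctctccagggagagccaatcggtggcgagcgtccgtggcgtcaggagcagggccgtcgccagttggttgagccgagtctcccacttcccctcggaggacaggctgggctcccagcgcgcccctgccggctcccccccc
Edar, chr10:58675697-58675946: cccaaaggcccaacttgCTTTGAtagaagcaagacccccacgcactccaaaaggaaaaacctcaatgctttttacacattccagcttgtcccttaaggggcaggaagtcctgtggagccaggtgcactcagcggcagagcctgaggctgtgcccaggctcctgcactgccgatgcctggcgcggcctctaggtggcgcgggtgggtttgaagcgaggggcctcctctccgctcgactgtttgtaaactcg
Pth1r, chr9:110742611-110742860: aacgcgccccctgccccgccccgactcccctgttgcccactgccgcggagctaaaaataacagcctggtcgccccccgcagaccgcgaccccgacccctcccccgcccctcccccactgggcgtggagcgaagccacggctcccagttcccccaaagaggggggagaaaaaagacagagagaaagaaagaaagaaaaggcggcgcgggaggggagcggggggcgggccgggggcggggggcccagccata
The Pthlh sequence is 75.2% G and C, Msx2 61.6%, Edar 58.8% and Pth1r 70.4%, where the median of 17491 promoters is 55.2%. Pth1r has 3 listed starts, and the sequence shown is the only 1 of the 3 that a deposited promoter region covers. Both strands of the 8 available sequences of 6 genes were searched for that motif, for the T-box core AGGTGT, for the Msx core, which is CAATTA, for a TATA box written TATAAA, and for the NF-kB consensus of 10 bases. No searched motif holds another. Only Edar held a match, CTTTGA at 233 bases before its start, and 13.1% of all promoters hold that motif. The other 4 motifs are held by 11.2% (AGGTGT), 6.51% (CAATTA), 12.4% (TATAAA) and 1.38% (NF-kB) of promoters, and a missing match says only that these letters are not in this window. Tbx2 and Tbx3 are named only.

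Per kb of counted window, the 8 genes ranged widely in openness. Tbx3 had 10.3 CPM per kb and exceeded 98.9% of 18804 genes tested. Tbx2 followed with 4.25 and Pthlh with 4.05, at 89.9% and 88.8%. Msx1 had 2.94, Edar 1.99, Msx2 1.73 and Pth1r 1.67, all above the median gene at 1.13. Eda had 0.143 and exceeded only 6.14% of genes. Its span of 425 kb on chrX:99975606-100400760 is mostly intron, and its window also overlaps that of Awat2.

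Over all nuclei, Tbx3, Pthlh and Edar were more open in fetal than in adult libraries, and no member was less open beyond the error of the test. These 3 of 8 stand beside a background of 11.3% of genes called higher in fetal and 10.9% called lower by the same test. Fetal and adult libraries did not overlap for 7 of the 8 genes, all higher in fetal, where 31.4% of all genes were higher and 29.6% lower in fetal without overlap. The median log2 fold change of the 8 was 0.21, against 0.01 over all genes. In such sums, a different makeup of clusters and a different number of reads per nucleus of a given type cannot be told apart.

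**Figure D1:**
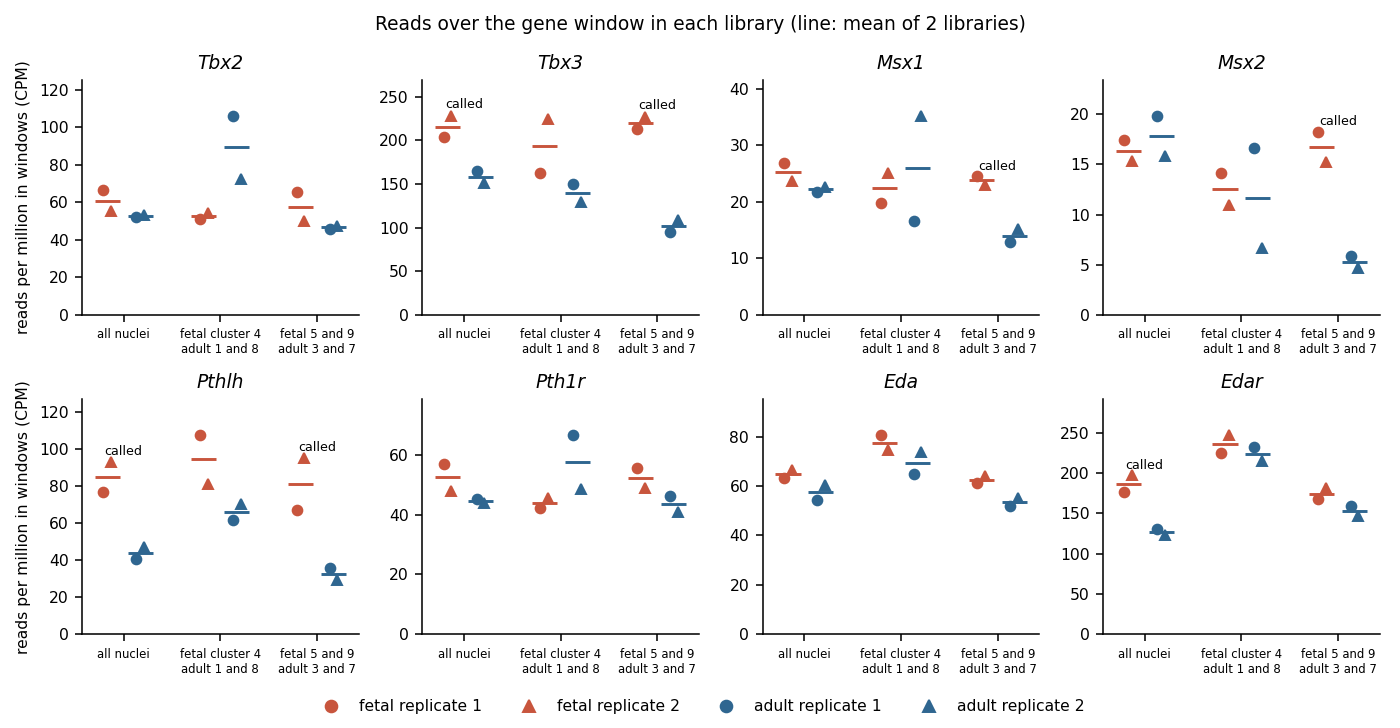
Reads over each gene window in CPM (vertical axes, starting at 0) for all nuclei, fetal cluster 4 against adult clusters 1 and 8, and fetal clusters 5 and 9 against adult clusters 3 and 7. Each point is 1 library and each line the mean of 2 libraries. In the luminal comparison Msx2 is at 18.2 and 15.2 in fetal and 5.88 and 4.71 in adult libraries, whereas over all nuclei its 4 libraries overlap.

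In each ligand and receptor pair, 1 gene passed in this comparison and its partner did not, and the difference within a pair was not tested. Pthlh, on chr6:147252109-147264013, had 77.0 and 93.2 CPM in fetal and 40.5 and 46.8 CPM in adult libraries. Both fetal libraries were well above both adult libraries, and the log2 fold change was 0.97 ± 0.14 (SE; adjusted p = 0.000302, edgeR quasi-likelihood test). Its receptor Pth1r, on chr9:110722085-110747145, had 57.2 and 48.1 in fetal and 45.4 and 43.9 in adult libraries, a log2 fold change of 0.23 ± 0.14 that did not pass (adjusted p = 0.265). The ranges of Pth1r did not overlap, but the lower fetal library was close to the adult pair. Edar, on chr10:58600780-58675696, had 176 and 197 CPM in fetal and 131 and 124 in adult libraries, with a log2 fold change of 0.56 ± 0.11 (adjusted p = 0.00252). The summed level of the 11 basal markers was 646 and 697 CPM in fetal and 424 and 534 in adult libraries, with none at 0, and its part in these results was not tested. Its ligand Eda had 63.4 and 66.5 in fetal and 54.4 and 60.6 in adult libraries, a log2 fold change of 0.18 ± 0.12 (adjusted p = 0.338). Eda lies on the X chromosome, which took 2.01% and 2.17% of fetal and 2.00% and 2.36% of adult reads.

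Among the transcription factors, Tbx3 alone passed. Tbx3, on chr5:119670534-119684724, had 203 and 228 CPM in fetal and 165 and 151 in adult libraries, with a log2 fold change of 0.45 ± 0.11 (adjusted p = 0.00829, edgeR). Tbx2, on chr11:85832615-85841948, had 66.4 and 55.1 in fetal and 52.3 and 53.2 in adult libraries (log2 fold change 0.19 ± 0.13, adjusted p = 0.337). The higher fetal library of Tbx2 carried most of that difference. Msx1, on chr5:37820491-37824585, had 26.9, 23.8, 21.8 and 22.7 in the same order (0.17 ± 0.17, adjusted p = 0.506). Msx2, on chr13:53466881-53472780, had 17.4, 15.3, 19.8 and 15.9, the only member whose stages overlapped (-0.13 ± 0.21, adjusted p = 0.694). Without fetal replicate 2, the calls of Tbx3 (adjusted p = 0.161) and Edar (0.0766) were lost and only that of Pthlh held.

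The stage difference was then measured among clusters of like marker genes. In the luminal progenitor-like set (fetal clusters 5 and 9 against adult clusters 3 and 7), 4 of 8 members were called, all higher in fetal, beside 9.77% of genes called higher and 10.5% lower. All 8 were higher in both fetal than in both adult libraries, where 29.1% of all genes were (29.9% were lower). The median log2 fold change was 0.52 against 0.00 over all genes. The adult clusters were not tested one at a time, and their levels differed. Msx1 was at 24.6 CPM in cluster 3 and 7.30 in cluster 7, against 24.6 and 24.0 in clusters 5 and 9. Cluster 3 lay between clusters 5 and 9 for Tbx2 (58.4, with 53.2 and 60.5) and Eda (66.7, with 51.8 and 68.3). For the remaining genes cluster 3 was below both, from Pth1r (46.4 against 47.8 and 55.1) to Tbx3 (102 against 234 and 218). The clusters were made from the same reads that are compared here and in the basal and interaction tests below. Because each of these clusters is almost all of 1 stage, cluster and stage cannot be told apart. Markers moved with this contrast. The summed basal markers were at 638 and 613 CPM in fetal clusters 5 and 9, with 4 and 3 of 11 raised. In adult clusters 3 and 7 they were at 486 and 312, with 0 raised. In the same order, luminal progenitor markers were at 482 and 511 against 622 and 833. Luminal markers were at 348 and 458 against 541 and 635, and pan-epithelial markers at 398 and 549 against 531 and 652. Their part in the result was not tested.

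In that set Tbx3 had 213 and 227 CPM in fetal and 94.6 and 109 in adult libraries, 2.17-fold apart (log2 1.12 ± 0.12, adjusted p = 5.71e-07, edgeR). Pthlh had 67.2 and 95.4 in fetal and 35.5 and 29.3 in adult libraries (1.35 ± 0.18, adjusted p = 1.06e-05). Msx2 had 18.2 and 15.2 against 5.88 and 4.71 (1.65 ± 0.37, adjusted p = 0.00274). The Msx2 adult values rest on 21 and 18 reads, yet its fold of 3.13 was the largest of the 8. Msx1 had 24.6 and 23.0 against 12.9 and 15.2 (0.76 ± 0.26, adjusted p = 0.0427). That Msx1 call did not hold under DESeq2 (adjusted p = 0.159) nor without any of the 4 libraries in turn. It was also lost with the gene body alone (0.0919), around the gene start (0.0967) and with fetal cluster 9 in place of clusters 5 and 9 (0.0702). Tbx2 (0.29), Pth1r (0.25), Eda (0.23) and Edar (0.19) had small log2 fold changes that did not pass, with adjusted p of 0.264, 0.325, 0.322 and 0.261.

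Among basal-like clusters (fetal 4 against adult 1 and 8), edgeR called 0 of 8 members, beside 2.98% of genes called higher and 3.18% lower. At an unadjusted p under 0.05 there were 2 in opposite directions, where 19.5% of all genes were, 9.85% higher and 9.62% lower, and DESeq2 called 0 members. Without overlap, 3 members were higher and 2 lower in fetal, beside 24.7% of genes each way. Tbx2 had 50.9 and 54.3 CPM in fetal and 106 and 72.5 in adult libraries (log2 fold change -0.72 ± 0.26, unadjusted p = 0.0074 by edgeR, adjusted p = 0.087). The Tbx2 stages did not overlap, although the adult libraries were far apart. Without adult replicate 2 its adjusted p was 0.0325, and with the gene body alone 0.0141. Tbx3 had 163 and 225 in fetal and 150 and 129 in adult libraries (0.51 ± 0.20, unadjusted p = 0.0124, adjusted p = 0.116). Pthlh had 107 and 81.3 against 61.7 and 70.1 (0.47 ± 0.24, adjusted p = 0.276). Edar was alike at 225 and 247 against 232 and 215, with overlapping stages. Markers moved with this contrast as well. The summed basal markers were at 882 CPM in cluster 4, against 1513 and 1385 in clusters 1 and 8. Luminal progenitor markers were at 380 against 307 and 276, luminal markers at 177 against 143 and 118, and pan-epithelial markers at 348 against 286 and 232. Their part in these results was not tested.

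The difference between these stage effects, basal minus luminal, was tested as an interaction. The basal and luminal sums of the same library entered it as if independent. Of 8 members 0 were called, where 3.52% of genes were, 1.44% with the greater and 2.08% with the lower stage effect in basal clusters. At an unadjusted p under 0.05 there were 5, all with a negative sign, which means that the fetal minus adult difference was lower in basal than in luminal clusters. By that looser rule 15.6% of all genes were called, 7.06% with a positive and 8.57% with a negative sign. The interaction was -1.03 ± 0.30 for Tbx2 (log2, edgeR adjusted p = 0.0595), -0.92 ± 0.30 for Pthlh (0.0898) and -0.63 ± 0.23 for Tbx3 (0.14). It was -1.04 ± 0.46 for Msx1 (0.267) and -1.50 ± 0.69 for Msx2 (0.286), the widest errors of the 8. With 1 library left out it ran from -1.30 to -0.440 for Msx1, from -2.01 to -0.998 for Msx2 and from -1.30 to -0.383 for Pthlh. Pth1r was at -0.62, and Eda and Edar were near 0 at -0.14 and -0.13. With each library entered as a block, the interactions of Tbx2, Tbx3 and Pthlh passed, with adjusted p of 0.0141, 0.0202 and 0.0190, all with a negative sign, where that fit called 3.92% of genes with that sign. Without adult replicate 2 Tbx2 passed without the block, at an adjusted p of 0.0202.

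By cluster, each gene had its own order, given here as levels without a test because the clusters were made from the same reads. Tbx2 was highest in stromal-like cluster 6, at 149 CPM over its 4 libraries, followed by basal-like clusters 8 (93.7 ± 28, SD, n = 2) and 1 (82.9 ± 19), and lowest in cluster 7 (37.7 ± 0.83). The libraries of clusters 6, 8 and 1 overlapped, so their order is not set. Within cluster 6 the fetal libraries had 294 and 156 CPM of Tbx2 and the adult libraries 50.9 and 97.5, from 17 to 43 reads each. Tbx3 was led by fetal clusters 5 (234 ± 0.63) and 12 (226 ± 2.1) with mature luminal-like cluster 2 between them (228 ± 16), and the clusters down to 11 (188 ± 27) formed 1 run of overlapping neighbours. Next came cluster 1 (152 ± 3.4), below both libraries of cluster 11. Cluster 14, farther down, had a library at 191, above the lower one of cluster 11 (169). Clusters 3 and 7 were last at 102 ± 8.7 and 98.4 ± 11.

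Msx1 and Msx2 shared their lowest cluster, 7, and parted at the top. Msx1 was at 51.9 ± 33 in cluster 14, from 15 and 12 reads. In cluster 6 it was at 110 and 45.5 in the fetal and 23.9 and 27.2 in the adult libraries, from 8 to 12 reads each, with a mean of 51.7 that was 32.2 without fetal replicate 1. It was then in overlapping neighbours down to 22.5 ± 3.7 in cluster 4. Below that came cluster 10 (16.0 ± 5.5, from 12 and 6 reads) and cluster 7 (7.30 ± 3.4), the latter without overlap with cluster 10. The higher library of cluster 10 (19.8) was just under the lower one of cluster 4 (19.9, from 14 reads). Clusters 1, 8 and 13 each had a library within the range of cluster 10, at 14.8, 18.4 and 17.3. In cluster 7 the Msx1 libraries had 12 and 20 reads. Msx2 was highest in cluster 2 (33.1 ± 4.9), then clusters 13 (28.3 ± 2.9), 11 (25.6 ± 1.2) and 14 (24.6 ± 7.9). The libraries of these 4 were all above those of the next, cluster 9 at 17 ± 0.50. Clusters 13 (6 and 14 reads) and 14 (6 and 8 reads) rest on so few reads, however, that the 95% Poisson intervals of their libraries all include that level. Cluster 5 also had a library at 21.4, above the lower one of cluster 14 (19.0). At the bottom were clusters 3 (7.04 ± 0.58, from 9 and 12 reads) and 7 (3.90 ± 1.4, from 12 and 6 reads), the latter 8.47-fold below cluster 2. Cluster 6 held 0 and 4 fetal and 0 and 4 adult reads of Msx2, and its mean of 6.06 was 3.02 without fetal replicate 2.

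Pthlh was highest in 4 fetal clusters, 12 (110 ± 5.7), 4 (94.5 ± 19), 5 (82.5 ± 29) and 9 (82.1 ± 16), which overlapped in a run. The next, adult cluster 8 (65.1 ± 1.2), was below both libraries of cluster 9, but it lay between the libraries of cluster 5. Clusters 1, 11 and 13 each had a library above the lower one of cluster 9 (70.8), at 71.3, 72.2 and 74.4. Pthlh was lowest in cluster 7 (25.2 ± 2.8). Edar had the most separated order, with 4 of 13 neighbouring pairs not overlapping. It was highest in clusters 4 (236 ± 15) and 12 (234 ± 7.1), then basal-like 1 (223 ± 1.8) and 8 (216 ± 24), then fetal 5 (181 ± 6.2) and 9 (174 ± 9.8). Clusters 3, 14 and 7 followed between 157 and 145, then 13, 10, 11 and 2 between 109 and 80.2. Cluster 8 had a library at 233, above the lower libraries of clusters 4 (226) and 12 (229). Cluster 6 was last, at 18.4 and 75.9 in the fetal and 32.9 and 13.6 in the adult libraries, from 2 to 20 reads each. Its mean of 35.2 was 6.71-fold below cluster 4, and without fetal replicate 2 it was 21.6, or 10.9-fold below. Over the whole window, Pth1r and Eda had the lowest ratios of highest to lowest cluster, 1.96 and 2.07. Pth1r led in stromal-like cluster 6 (69.3), with 73.5, 75.9, 77.8 and 49.9 in its fetal and adult libraries, from 8 to 26 reads each. Clusters 1 and 13 each had a library above all of these, at 78.7 and 78.8, so that lead is not set. Pth1r was lowest in cluster 2 (35.4 ± 0.36). Eda ran from 77.6 ± 4.6 in cluster 4 to 37.6 in cluster 6.

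**Figure D2:**
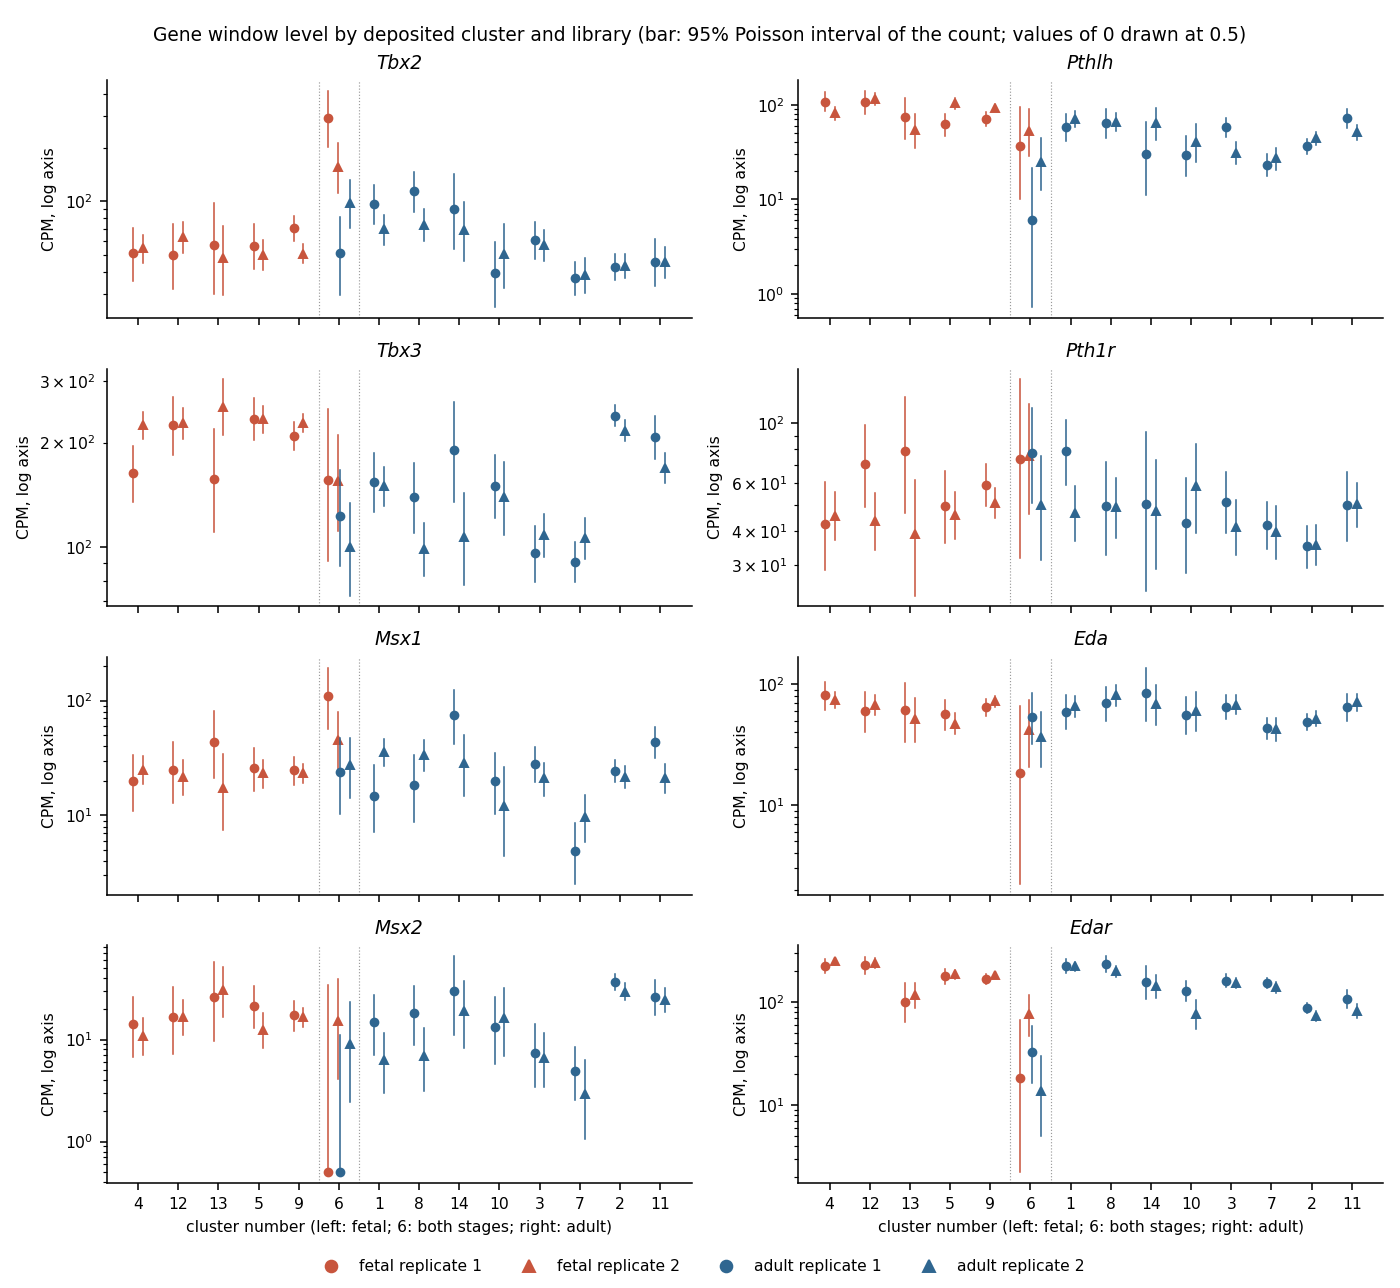
Level of each gene window in CPM (log axis) by cluster, with fetal clusters on the left, cluster 6 in the middle and adult clusters on the right. Each point is 1 library with the 95% Poisson interval of its count, and values of 0 are drawn at 0.5. Edar falls from 236 in cluster 4 to 35.2 in cluster 6, and Msx2 from 33.1 in cluster 2 to 3.90 in cluster 7.

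Within the adult gland the lineages could be set side by side in each library. Basal-like clusters 1 and 8 summed were above luminal progenitor-like clusters 3 and 7 summed for all 8 members in both libraries. Of all genes, 24.4% were higher and 34.5% lower without overlap. The mean log2 difference was 0.98 ± 0.30 for Pthlh (SD of 2 libraries), 0.88 ± 0.42 for Tbx2 and 0.54 ± 0.01 for Edar, and the lowest was 0.37 ± 0.05 for Eda. By single cluster, Eda in cluster 3 (66.7 ± 1.8) was above cluster 1 (62.5 ± 4.4). For the other members the mean of cluster 3 was below both basal-like clusters, narrowly for Msx1 (24.6 against 25.1 and 26.0). For Msx2 the closest libraries were at 6.58 and 5.74 CPM, from 19 and 21 reads. Mature luminal-like clusters 2 and 11 were above clusters 3 and 7 for 4 members and below for 2, beside 30.6% and 28.8% of genes. Msx2 was the widest of these, at 34.3 and 27.7 CPM against 5.74 and 4.65, which is 5.97-fold. Tbx3 was at 232 and 199 against 92.4 and 107. Edar went the other way, at 91.4 and 76.6 against 155 and 145. Against the basal-like clusters, clusters 2 and 11 were higher for 2 members, Tbx3 and Msx2, and lower for 5, beside 37.6% and 26.1% of genes. Edar again differed most downward there over the whole window, at 91.4 and 76.6 against 228 and 211 (log2 -1.37 ± 0.10).

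Some of these lineage differences were wider and others narrower when only 2 kb on either side of the gene start was counted. The start counted for Pth1r is chr9:110747145, which no deposited promoter region covers. The Pth1r start printed above and its promoter region lie outside those 2 kb. For Pth1r, basal-like minus luminal progenitor-like clusters then gave a log2 difference of 0.97 ± 0.11 (SD of 2 libraries) in place of 0.37. Mature luminal-like minus basal-like clusters gave -1.65 ± 0.06 for Pth1r in place of -0.48. For Edar, basal-like minus luminal progenitor-like clusters gave 1.00 ± 0.28 in place of 0.54. Eda was at 0.76 ± 0.30 in place of 0.37 in that contrast, and at -0.94 ± 0.09 in place of -0.28 for mature luminal-like minus basal-like clusters. Pthlh was at -0.68 ± 0.38 in place of -0.49 in the latter. Mature luminal-like minus luminal progenitor-like clusters gave narrower differences for Edar, -0.38 ± 0.13 in place of -0.83, and for Pthlh, 0.21 ± 0.03 in place of 0.50.

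In the fetal gland, cluster 4 was above clusters 5 and 9 without overlap for 2 members, beside 21.8% of genes, and below for 2, beside 30.1%. Edar was at 226 and 247 against 170 and 183, and Eda at 80.9 and 74.4 against 62.1 and 64.7. Msx2 was lower at 14.2 and 10.9 against 18.5 and 15.4, and Pth1r at 42.6 and 45.6 against 56.5 and 49.4. That Pth1r difference was -0.25 (log2) over the whole window and -1.41 ± 0.09 within 2 kb of the start at chr9:110747145. The printed Pth1r start lies outside those 2 kb. The Tbx2 libraries overlapped in this fetal contrast, at 51.1 and 54.3 against 66.3 and 50.5.

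The deposited list of regions, each 1000 bases wide on mm10, placed 186 distal regions near the 8 genes, 43 of them inside the counted windows. Near means inside the window, or nearest to that gene's start and within 500 kb. Of 163 with enough reads to test, 53 were called higher in fetal and 25 lower, 32.5% and 15.3%, beside 16.6% and 18.8% of all 122865 distal regions tested. Tbx3 had 18 higher and 2 lower of 40, Tbx2 12 and 3 of 30, and Edar 11 and 0 of 21. Pthlh had 5 and 2 of 11, Msx1 2 and 4 of 17, and Msx2 5 and 14 of 36. None of the 7 near Pth1r and the 1 near Eda was called. Regions near the same gene share their neighbourhood and are not independent of each other. Values of distal regions are CPM of reads in distal regions, and those of promoter regions CPM of reads in promoter regions.

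**Figure D3:**
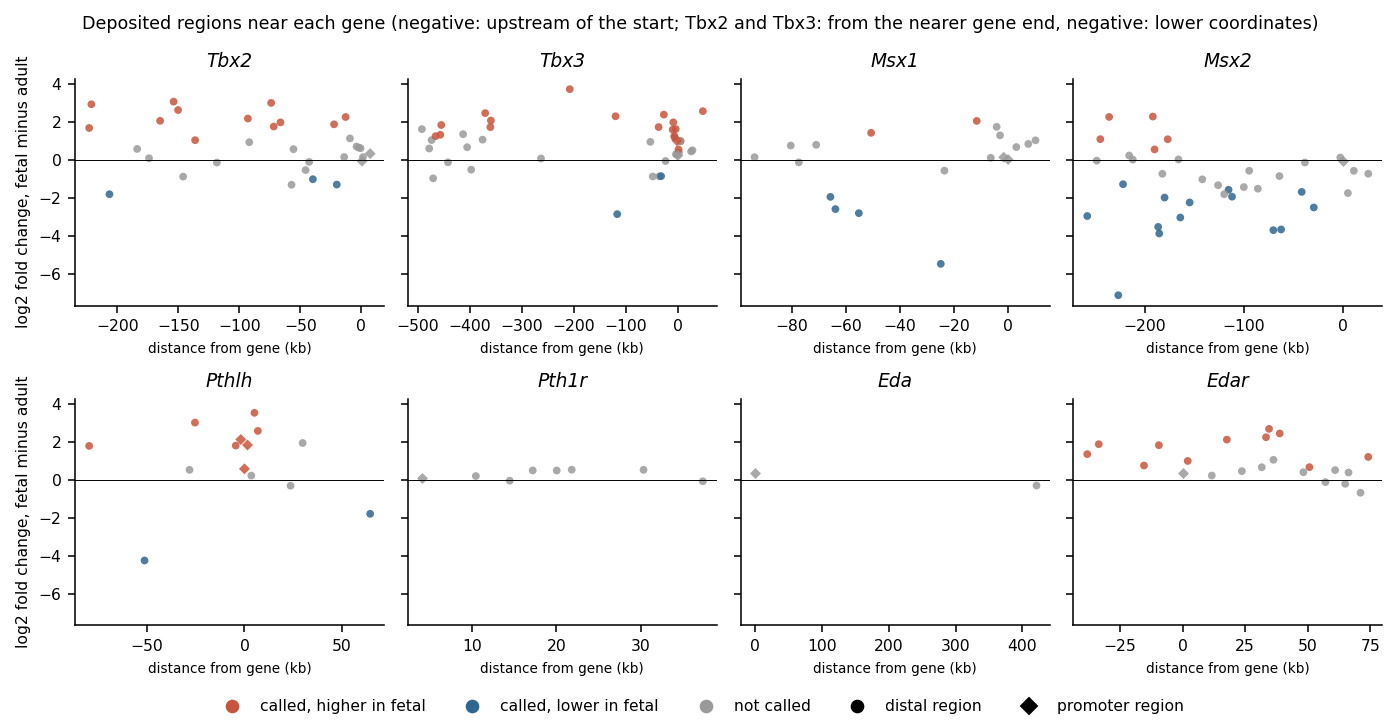
Log2 fold change, fetal minus adult (vertical axis), of each tested region against its distance in kb (horizontal axis). Negative distances are upstream of the start, or for Tbx2 and Tbx3, whose strand was not used, on the lower-coordinate side of the nearer gene end. Circles are distal and diamonds promoter regions, and colours mark called higher, called lower and not called. The 3 Pthlh promoter regions all lie above 0, between 0.60 and 2.14, and 14 regions on the upstream side of Msx2 are called lower.

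All 3 promoter regions of Pthlh were called higher in fetal libraries. Of 13 promoter regions near the members, 4 were called higher and 0 lower, beside 10.5% and 11% of all 18570 tested, and 3 of the 4 belonged to Pthlh. The region over the printed start, chr6:147263530-147264529, had 98.0 and 117 CPM in fetal and 67.5 and 76.1 in adult libraries (log2 fold change 0.60 ± 0.15, adjusted p = 0.00235, edgeR). A region within the gene, chr6:147261945-147262944, had 26.7 and 38.0 against 9.09 and 9.18 (1.85 ± 0.31, adjusted p = 6.19e-06). It was highest in cluster 5 at 57.7 and lowest among clusters with reads in cluster 7 at 2.59. The third, chr6:147265395-147266394, had 7.54 and 17.6 against 1.51 and 4.24 (2.14 ± 0.55, adjusted p = 0.00265), from 5 to 62 reads per library. Without fetal replicate 2 the call held for the region within the gene alone. The adjusted p was then 0.135 at the start and 0.313 for the third, whose log2 fold change was 1.34. Without adult replicate 2 the third was at 3.09.

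The other starts differed less. The Tbx3 start, chr5:119670148-119671147, was the most open promoter of the 8 genes at 313 and 341 in fetal and 275 and 276 in adult libraries, and it did not pass (0.25 ± 0.10, adjusted p = 0.0706). With a minimum mean of 50 reads it did (0.28, adjusted p = 0.0399). Its flank, chr5:119668464-119669463, did, at 15.8 and 23.3 against 9.69 and 9.89 (1.03 ± 0.36, adjusted p = 0.0296). The call of the flank was lost under DESeq2 (adjusted p = 0.104) and without fetal replicate 2 (0.421), adult replicate 1 (0.104) or adult replicate 2 (0.106). The Edar start, chr10:58675132-58676131, had 61.7 and 62.7 against 44.2 and 52.3 (0.36 ± 0.19, adjusted p = 0.166). The Eda start, chrX:99974905-99975904, was at 81.6 and 66.7 against 63.9 and 49.9 (0.36 ± 0.18, adjusted p = 0.143). The starts of Msx2 (43.9 and 36.0 against 45.7 and 34.1) and Msx1 (41.1 and 44.5 against 40.9 and 42.9) overlapped between stages. So did a second Msx1 promoter region, chr5:37825572-37826571, at 4.80 and 4.82 against 5.15 and 3.53. The Tbx2 promoter region, chr11:85832735-85833734, also overlapped at 27.4 and 30.9 against 29.4 and 31.3. By cluster it stood at 93.7 in cluster 6, 79.4 in cluster 8 and 78.4 in cluster 1, and between 12.4 and 41.1 in the other clusters. The Pth1r region at its internal start, chr9:110742534-110743533, had 28.8 and 17.3 against 19.7 and 20.5.

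Around Pthlh, a distal region 79.8 kb upstream, chr6:147343305-147344304, had 56.9 and 45.1 CPM in fetal and 12.6 and 16.0 in adult libraries (1.81 ± 0.23, adjusted p = 7.02e-08, edgeR). It was highest in fetal clusters 5 (66.2), 9 (55.7) and 13 (54.0), and lower in fetal clusters 4 (27.8) and 12 (22.4), which had the highest gene-wide Pthlh levels. In the authors' deposited Cicero table, where a score of co-accessibility measures how often regions are open in the same groups of nuclei, it was linked to the Pthlh promoter regions. The scores were 0.358 with the region inside the gene and 0.214 with that at the start, and 0.358 was the highest of any pair near Pthlh. In the other direction, a region 64.6 kb downstream, chr6:147198933-147199932, had 2.99 and 1.94 in fetal and 6.75 and 9.04 in adult libraries (-1.77 ± 0.51, adjusted p = 0.00575), and led in basal-like cluster 8 at 24.9. Its call was lost under DESeq2 (adjusted p = 0.0598) and without fetal replicate 2 (0.0932) or adult replicate 2 (0.0713). A region 4.5 kb upstream, chr6:147267985-147268984, had 14.1 and 7.91 in fetal and 1.82 and 3.93 in adult libraries (1.82 ± 0.46, adjusted p = 0.00186), and an adjusted p of 0.053 without adult replicate 1.

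Of the 11 Edar regions called higher, 7 lay within the gene body, where 19 of all 24 distal regions near Edar lay inside its counted window. A region 34.5 kb downstream of the start, chr10:58640675-58641674, had 16.3 and 17.1 in fetal and 3.10 and 2.10 in adult libraries (2.70 ± 0.40, adjusted p = 9.9e-07). Another at 38.8 kb, chr10:58636412-58637411, had 10.3 and 10.3 against 2.19 and 1.57 (2.46 ± 0.48, adjusted p = 9.07e-05). Both were highest in the clusters with most Edar, 4 and 12, at 23.0 and 26.9 for the first and 24.2 and 12.5 for the second. The region with most reads, chr10:58663525-58664524, was at 39.4 and 42.5 against 35.2 and 34.2 and did not pass (adjusted p = 0.373). It was highest in basal-like cluster 1 at 76.9.

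Near Msx1 a region 24.8 kb upstream, chr5:37848927-37849926, was almost closed in fetal nuclei. It held 0 and 4 reads in fetal and 132 and 142 in adult libraries, or 0 and 0.646 against 24.1 and 18.6 CPM (log2 fold change -5.46 ± 0.54, adjusted p = 3.1e-10, edgeR). The fitted fold depends on those 4 reads, which all lie in fetal replicate 2, and without that replicate it was -9.77. In fetal replicate 1, 0 reads allow at most 3 counts, or 1.28 CPM. It was open in mature luminal-like clusters 2 (42.6) and 11 (35.3) and in cluster 10 (46.1), and it held 0 reads in clusters 1, 3, 4, 7, 9 and 12. The Msx1 start itself, at 40.0 in cluster 2, was not higher there than in cluster 1 at 51.4. A region 11.5 kb upstream, chr5:37835582-37836581, went the other way, at 17.5 and 20.2 in fetal and 2.55 and 6.15 in adult libraries (2.08 ± 0.36, adjusted p = 1.84e-05), and its log2 fold change was 2.77 without adult replicate 2. It was highest in fetal clusters 4 (43.1) and 12 (40.3), and at 12.5 or below in the other clusters. Of the regions farther out, chr5:37874771-37875770 at 50.7 kb was higher in fetal, at 9.41 and 11.0 against 2.37 and 4.98 (1.45 ± 0.43, adjusted p = 0.00745). That call was lost under DESeq2 (0.0907) and without adult replicate 1 (0.161). The region at 55.2 kb, chr5:37879329-37880328, was lower, at 0.856 and 0.969 against 6.02 and 7.07 (-2.79 ± 0.63, adjusted p = 0.000601), from 2 and 6 fetal reads.

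Msx2 had the largest number of regions called lower in fetal, 14 of 36. A region 62.7 kb upstream, chr13:53534944-53535943, had 2 and 2 reads in fetal and 28 and 57 in adult libraries (-3.65 ± 0.74, adjusted p = 0.000162), and its log2 fold change was -2.81 without fetal replicate 2. Another 185 kb upstream, chr13:53657769-53658768, had 0 and 4 against 41 and 48 (-3.86 ± 0.74, adjusted p = 6.42e-05). Its fitted fold rests on those 4 reads and ran from -8.14 to -3.36 with 1 library left out, the former without fetal replicate 2. In fetal replicate 1, 0 reads again allow at most 1.28 CPM. These regions at 62.7 and 185 kb were open mainly in clusters 2, 10, 11 and 14 or a subset of them, at 9.37 to 17.7 where open. A region 190 kb upstream, chr13:53662479-53663478, had 54.8 and 60.9 in fetal and 38.1 and 39.9 in adult libraries (0.57 ± 0.19, adjusted p = 0.0189). That call was lost under DESeq2 (0.0899), with no filter on low counts (0.0852) and without fetal replicate 2 (0.118), adult replicate 1 (0.111) or adult replicate 2 (0.0979). By cluster it was at 60.6 in 7, 66.0 in 3 and 68.6 in 9, against 0 reads in 1 and 6 and 6.71 in 8. Fetal basal-like cluster 4 was at 50.2 for that region, where the adult basal-like clusters were nearly closed. Farther out, 245 kb upstream, chr13:53717197-53718196 had 38.1 and 57.7 in fetal and 23.9 and 21.3 in adult libraries (1.11 ± 0.22, adjusted p = 0.000123), with its peak in clusters 12 (75.3) and 4 (64.4). At 192 kb, chr13:53664262-53665261 was also higher, at 8.98 and 7.43 against 0.73 and 2.36 (2.31 ± 0.55, adjusted p = 0.00103). Its log2 fold change ran from 1.69 without adult replicate 1 to 3.31 without adult replicate 2.

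Distances for the T-box genes are from the nearer end of the gene. For Tbx2, regions on the lower-coordinate side 154 kb away (chr11:85678257-85679256, 9.41 and 7.59 against 0.365 and 1.44) and 73.9 kb away (chr11:85758204-85759203, 18 and 22.4 against 2.19 and 2.75) were higher in fetal. Their log2 fold changes were 3.09 ± 0.60 (adjusted p = 7.97e-05) and 3.02 ± 0.37 (adjusted p = 3.63e-08). The first of these ran from 2.44 without adult replicate 1 to 4.31 without adult replicate 2. The nearer of them led in cluster 5 at 38.9. Regions 39.7 kb (-1.0 ± 0.33) and 20.1 kb (-1.28 ± 0.51) away were lower, with adjusted p of 0.0166 and 0.0452. The call at 39.7 kb was lost under DESeq2 (adjusted p = 0.0846) and without fetal replicate 1 (0.0872). The call at 20.1 kb was lost under DESeq2 (0.195) and without fetal replicate 2 (0.277), adult replicate 1 (0.138) or adult replicate 2 (0.107). The region at 20.1 kb was open mainly in basal-like clusters 1 (24.3) and 8 (21.1), and it had the highest link to the Tbx2 promoter region, at a score of 0.204. The region with most reads, chr11:85842848-85843847 at 1.4 kb, overlapped between stages at 32.1 and 25.7 against 24.6 and 25.9.

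For Tbx3, regions 208 kb away on the lower side (chr5:119462408-119463407, 8.13 and 8.56 against 0.365 and 0.786) and 48.2 kb away on the higher side (chr5:119732454-119733453, 23.5 and 20.3 against 2.55 and 4.45) were higher in fetal. The log2 fold changes were 3.75 ± 0.63 (adjusted p = 9.59e-06) and 2.59 ± 0.35 (adjusted p = 2.48e-07). The second led in luminal progenitor-like cluster 9 at 29.9 and in cluster 5 at 21.4. A region 116 kb away (chr5:119553603-119554602, -2.84 ± 0.68, adjusted p = 0.00101) was lower and led in mature luminal-like cluster 2 at 12.1, and without adult replicate 1 its adjusted p was 0.0517. The flanking region chr5:119685711-119686710 had the most reads and was slightly higher in fetal, at 36.4 and 39.2 against 28.8 and 22.4 (0.58 ± 0.22, adjusted p = 0.0401). That call was lost with total reads in place of TMM scaling (adjusted p = 0.0606), under DESeq2 (0.204), with no filter on low counts (0.139) and without fetal replicate 1 (0.0616), fetal replicate 2 (0.141) or adult replicate 2 (0.451). Without adult replicate 2 its log2 fold change was 0.28. On the lower side at 32.1 kb, chr5:119637955-119638954 was lower in fetal, at 7.27 and 9.53 against 13.7 and 17.2 (-0.84 ± 0.33, adjusted p = 0.0424). Its call was lost under DESeq2 (0.157) and without fetal replicate 1 (0.137), fetal replicate 2 (0.0643) or adult replicate 2 (0.179).

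Near Pth1r and Eda the regions with most reads overlapped between stages. The Pth1r region 37.3 kb downstream, chr9:110709361-110710360, was at 32.5 and 40.4 against 41.6 and 35.5 and led in basal-like cluster 1 at 80.8. The only tested Eda region, chrX:100394636-100395635 in the gene body, had 4 and 15 fetal and 12 and 22 adult reads.

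**Figure D4:**
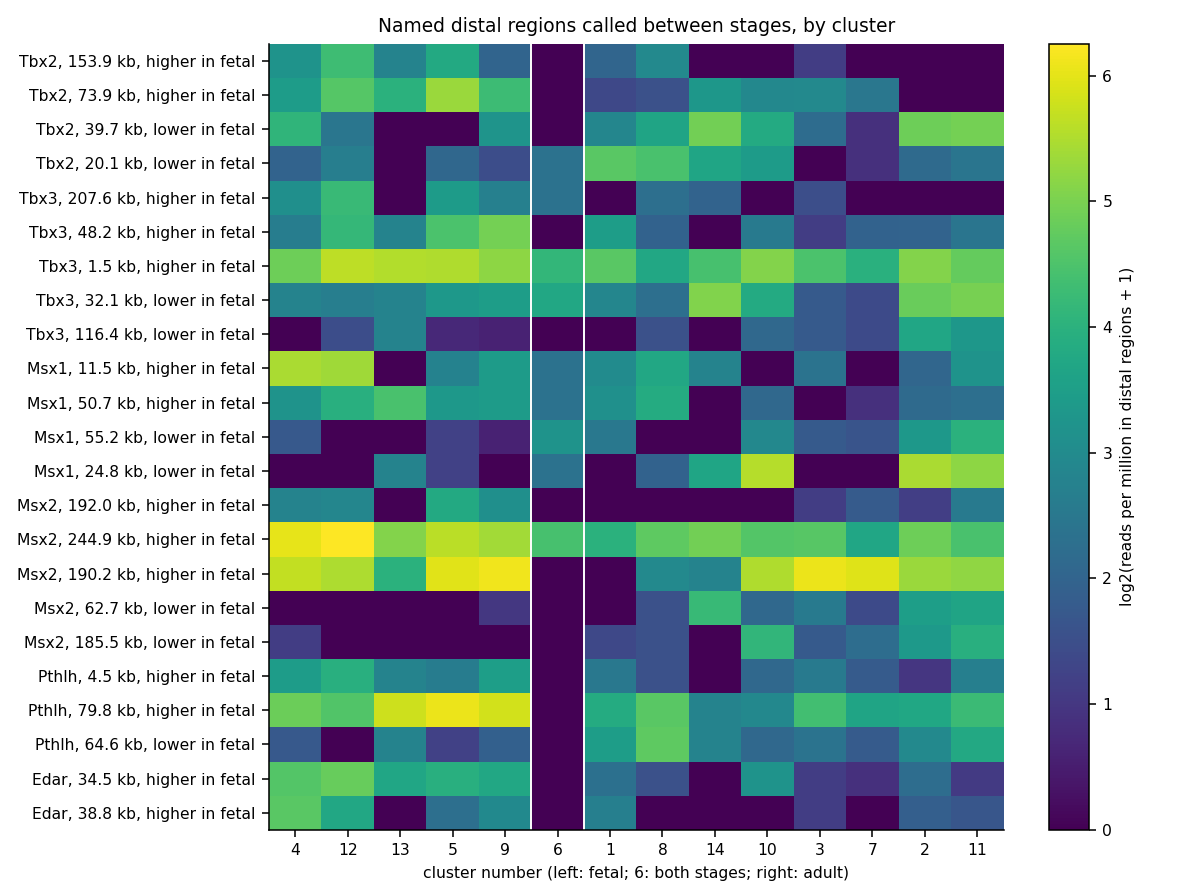
Each row is 1 distal region named by gene and distance that was called between stages, and each column a cluster, with fetal clusters left of the first line and adult clusters right of the second. Colour is log2 of CPM in distal regions plus 1. The Msx1 region at 24.8 kb is bright in clusters 2, 10 and 11 (42.6, 46.1 and 35.3), and the Msx1 region at 11.5 kb in clusters 4 and 12 (43.1 and 40.3).

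The deposited Cicero pairs differed in density between the 8 loci. A score of at least 0.1 was held by 10.4% of 2178 pairs near Msx2 and 7.57% of 1546 pairs near Edar, where 2.63% of all 12719512 listed pairs were that high. The other shares were 4.48% of 67 for Eda, 2.14% of 843 for Msx1, 1.88% of 1971 for Tbx3, 1.48% of 1148 for Pthlh, 1.30% of 1614 for Tbx2 and 0.954% of 734 for Pth1r. The highest scores were 0.570 for Edar and 0.558 for Msx2. The Edar start was linked at 0.380 to a region 15.5 kb away, and the Tbx3 start at 0.324 and 0.308 to regions 10.7 kb and 15.6 kb away. None of the 7 links of at least 0.1 held by the Msx1 region at 24.8 kb went to a promoter region of Msx1, and the strongest was 0.388 with a distal region 41.0 kb away. These scores pool all nuclei, so they have no replicate.

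In the deposited gene accessibility scores, which combine a promoter with its linked regions, Tbx3 was above 0 in 26.6% of 7846 nuclei and Edar in 21.4%, more than 98.2% and 95.6% of 11327 genes. Msx2 followed at 13.2% and Pthlh at 11.7%, above the median gene at 6.79%. Tbx2 (5.19%), Msx1 (3.91%) and Pth1r (3.84%) were below it. Eda has no row in that table.

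Motif scores measure whether regions with a factor's motif are more open in a nucleus than expected, and were deposited for 4 members. Averaged over all nuclei of a library, Tbx2 and Tbx3 scores were lower in fetal libraries and Msx1 and Msx2 scores higher. Of all 427 motifs 67.9% were called, 32.3% higher and 35.6% lower. The mean Tbx2 score was -0.193 and -0.265 in fetal and 0.171 and 0.0692 in adult libraries, a difference of -0.349 ± 0.0570 (SE, limma adjusted p = 0.00298). The Tbx3 difference was -0.353 ± 0.0570, but these columns are close to copies of each other (r = 0.947 over 7846 nuclei) and cannot separate the proteins. Msx1 scores were 0.186 and 0.194 in fetal and -0.159 and -0.0607 in adult libraries (0.300 ± 0.0522, adjusted p = 0.00379). Msx2 scores were 0.199 and 0.188 against -0.135 and -0.113 (0.318 ± 0.0435, adjusted p = 0.00147). Their sizes were ordinary, ranking 164, 162, 196 and 180 of 427 for Tbx2, Tbx3, Msx1 and Msx2, with a median absolute difference of 0.256. By cluster the stages did not always part. Msx1 was at 0.236 and 0.136 in adult basal-like clusters 8 and 1, and at 0.202 in fetal cluster 4. In the same order Tbx2 was at -0.182, -0.00241 and -0.108, Tbx3 at -0.134, 0.0337 and -0.131, and Msx2 at 0.106, 0.0733 and 0.193. In the luminal set Msx1 was at 0.246 and 0.151 in fetal clusters 5 and 9, against -0.0897 and -0.170 in adult clusters 3 and 7. The part of cluster makeup in these differences was not tested.

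Related columns had the same signs. The T-box protein Mga was at -0.516 ± 0.0607 (limma adjusted p = 0.000788), whereas Tbx15 and Tbx18, whose columns are identical, were at -0.127 and not called (0.0553). Dlx3 and Dlx5, homeodomain factors close to Msx, were at 0.355 and 0.363. For the NF-kB proteins at the end of the Edar pathway, scores were lower in fetal nuclei, at -1.84 ± 0.145 for Nfkb1 (rank 14 of 427, adjusted p = 0.000186), -1.51 for Rel and -1.43 for Rela. Nfkb1 was lowest in fetal clusters 5 (-1.37) and 9 (-1.28) and highest in adult cluster 7 (1.61). The Tbx2 column was lowest in cluster 6 (-1.19), the cluster with the highest Tbx2 window, and highest in cluster 11 (0.356).

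**Figure D5:**
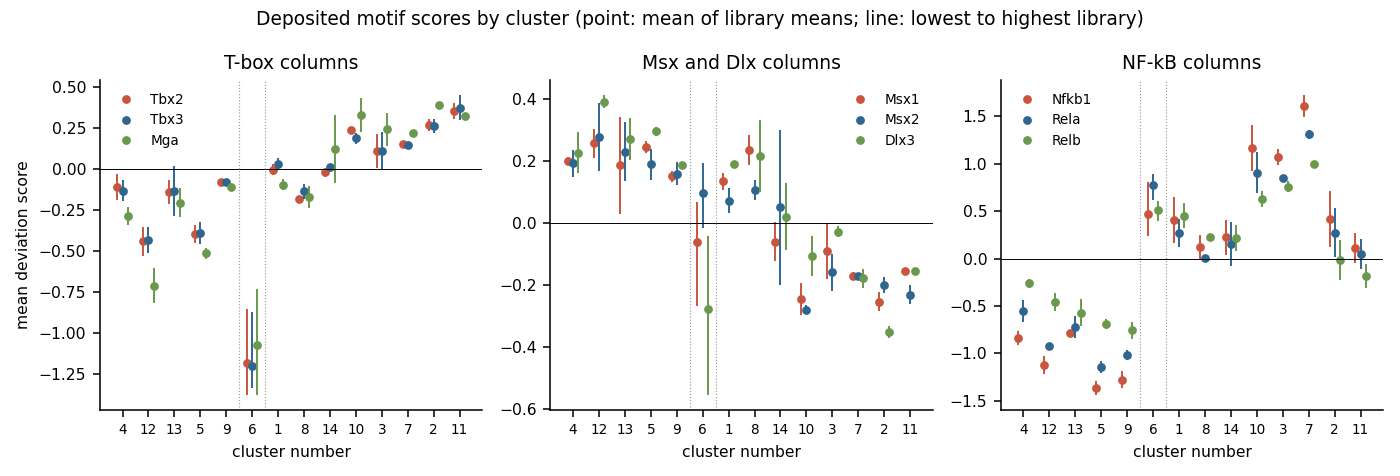
Mean deposited motif deviation score (vertical axis, no unit) by cluster, with fetal clusters on the left, cluster 6 between the lines and adult clusters on the right. Points are means of library means and lines run from the lowest to the highest library. The Tbx2 and Tbx3 scores drop to -1.19 and -1.20 in cluster 6, and Nfkb1 rises to 1.61 in cluster 7.

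Genes of the same pathways were read from lists that leave out the 8 members. Of 14 EDA pathway genes tested over all nuclei, 2 rose and 5 fell in fetal libraries, with a median log2 fold change of -0.21 against 0.01 over all genes. Of all genes, 11.3% rose and 10.9% fell in that comparison, and these shares and medians are the background for each list over all nuclei. In the luminal comparison the shares were 9.77% and 10.5%, and in the basal one 2.98% and 3.18%. The risers were Edaradd, the adaptor of Edar (0.68 ± 0.15, edgeR adjusted p = 0.00625), and Fgf20, a growth factor known as an Eda target in skin (1.76 ± 0.22, adjusted p = 0.000124). Nfkbia, the NF-kB inhibitor (-0.85 ± 0.12, adjusted p = 0.000298), and the kinase Ikbkb (-0.70 ± 0.13, adjusted p = 0.0016) were among those that fell. In the luminal set 2 rose and 4 fell, including Edaradd (1.17) and Nfkbia (-1.37), and in the basal set only Fgf20 was called of 13, at 1.84.

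Of 9 tested genes of the PTHrP signalling path, 2 rose and 2 fell over all nuclei, with a median of -0.13. Gnas, the stimulatory G protein subunit (0.64 ± 0.11), and Gnaq (0.27 ± 0.09) were higher, and Plcb1 (-0.54 ± 0.12) and Creb1 (-0.40 ± 0.11) lower. In the basal set 0 rose and 3 fell (Adcy9, Plcb1 and Pde4d), and in the luminal set Gnas rose and Plcb1 fell. Of 15 other T-box genes, 2 rose and 0 fell, Tbx5 (1.38 ± 0.19) and Tbx15 (0.64 ± 0.13), with a median of 0.37. In the basal set 2 of 14 rose, Tbx5 (1.84) and Tbx1 (1.15), with a median of 0.78, and in the luminal set 2 of 15 rose, Tbx5 (1.57) and Tbx20 (1.23), with a median of 0.38. None fell in either set. Of 7 other Msx and Dlx genes, Dlx3 (0.80 ± 0.18), Dlx5 (0.78 ± 0.14) and Dlx6 (0.57 ± 0.17) rose and 0 fell, with a median of 0.42. In the luminal set Dlx3 alone of the 7 was called (0.88 ± 0.27, median of the list 0.11), and in the basal set 0 of 7 were (median 0.22). Reads carry no strand of transcription, so a gene and an antisense or overlapping partner cannot be told apart.

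Of 25 tested genes of Wnt, BMP, FGF and other bud signals, 7 rose and 2 fell over all nuclei, and the median was 0.16. Bmp7 (0.97 ± 0.11), the Wnt effector Lef1 (0.94 ± 0.14) and the secreted Wnt inhibitors Dkk1 (1.58 ± 0.37) and Sostdc1 (1.28 ± 0.18) were among those that rose. In the luminal set 9 rose and 4 fell, led by Bmp7 (1.96) with Fgfr2 (1.24) and Lef1 (1.10). In the basal set 2 rose, Lef1 (0.87) and Fgf7 (1.24), and Wnt10a fell (-1.18). In the luminal set Wnt10a, given here after its values were seen, was at 0.63 ± 0.18 (adjusted p = 0.0144).

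As a description of likeness, log levels over the 14 clusters were correlated with those of 13934 to 13951 other genes, and the 14 points share their libraries. Edar was most like Map7 (r = 0.976) and Pdss2 (0.960), Tbx2 most like Arhgap20 (0.963), and Eda most like Fam155a (0.963). Pthlh was most like Chst5 (0.932), Msx2 most like Meis1 (0.908), Msx1 most like Soat1 (0.882), Tbx3 most like Tmem53 (0.879) and Pth1r most like B3gnt9 (0.849). Among the members themselves the highest values were 0.728 for Tbx3 with Msx2, 0.725 for Tbx2 with Msx1 and 0.701 for Pthlh with Edar. Within the ligand and receptor pairs r was 0.0621 for Pthlh with Pth1r and 0.626 for Eda with Edar, and it was -0.298 for Tbx2 with Tbx3.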

How the data were processed

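Single-nucleus ATAC-seq reads were mapped to mm10, and the submitters' processing notes name Bowtie2, MACS2 and bedtools without versions or roles. The authors deposited reads as intervals with a nuclear barcode, which were counted here, together with 14 clusters, 2 lists of regions, chromVAR motif scores and Cicero scores; the scores are used as deposited. Reads of listed nuclei were counted over each RefSeq gene (GRCm38.p6) plus 2 kb and over the regions, and summed by library and cluster, with no removal of doublets here. Sums were compared with edgeR 4.0.16 (R 4.3.3; quasi-likelihood test, TMM scaling, mean of at least 10 reads, Benjamini-Hochberg adjustment over all features, threshold 0.05), with DESeq2 1.42.0 as an alternative. Motif scores were averaged per library and compared with limma 3.58.1. The SE of an edgeR fold change was derived from its F statistic. Levels are counts scaled to the reads in the same kind of feature, that is, gene windows, distal regions or promoter regions (CPM). They were not scaled to all reads of the library. Between stages the total was that of the tested features in each library, with TMM factors. By cluster it was that of the library within the cluster, without TMM factors. A cluster was named by markers raised by at least 0.5 (log2) over the mean cluster. The main edgeR comparison of stages and the limma fit were tested on simulated data, and the DESeq2, block and interaction fits were not. The members and lists were chosen with earlier results of these data known. All 8 genes and the promoter regions inside their windows are named; of distal regions, those with most reads per gene and up to 2 called in each direction with the largest fold change; of each list, up to 4 called genes per comparison. Equal replicate numbers are not said to share a day or litter.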

Additional observations from a re-analysis of the deposited data

How the results depend on the processing

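With the replicate number as a block, 6424 in place of 4172 genes were called over all nuclei, and 1 member in place of 0 was called higher in the basal set, Tbx3 at 0.50 (edgeR adjusted p = 0.0497). The distal region 20.1 kb from Tbx2 had an adjusted p of 0.0634 with that block, and the promoter region at the Tbx3 start 0.0331. The log2 difference of replicate 1 minus replicate 2 in the fetal libraries correlated with that in the adult libraries (r = 0.267 over 18804 genes, 2 pairs). The labels do not say what equal replicate numbers share. Leaving out 1 library at a time gave 1812 to 4459 genes and 1 to 3 members over all nuclei, with the lowest of each without fetal replicate 2. It gave 547 to 867 genes in the basal set in place of 1014, with 0 to 1 members called lower (Tbx2, without adult replicate 2). In the luminal set it gave 1686 to 3417 genes in place of 3574, and in the interaction 50 to 590 in place of 607, with 0 to 1 members lower (Tbx2, without adult replicate 2). Promoter regions called ranged from 2514 to 3057 in place of 3992, with 1 to 4 near members. DESeq2 called 301 genes in the basal set, 1998 in the luminal set, 24872 distal regions in place of 43423 (27 higher and 15 lower near members) and 2622 promoter regions. A minimum mean of 50 reads left 15301 distal regions called, 18 higher and 8 lower near members, with fewer tested. Within 100 kb of the genes 34 were higher and 13 lower. The gene body alone gave 1 member lower in the basal set. With each library as a block the interaction called 1179 genes and 3 members. Counting only 2 kb on either side of the gene start, which leaves out Tbx2 and Tbx3, called 232 genes in the basal set, and 1664 genes and 2 members in the luminal set. Of the 6 members it counts, 5 were higher in clusters 1 and 8 than in 3 and 7. In clusters 2 and 11 against 1 and 8, 1 was higher, where Tbx3 is left out. In cluster 4 against 5 and 9, 1 was lower, as with nuclei at or above the median depth for all 8 members. The share of all genes was not computed for these settings. Cicero links near members numbered 789 at a score of 0.05 and 122 at 0.25, in place of 446. Where not named, the cause was not tested.

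No reversed log2 value had been called. Around the gene start, Msx1 was -0.0023 over all nuclei, and in the basal set Eda was -0.0115 and Edar -0.0498. With 1 library left out, Msx2 ran from -0.313 to 0.0307 over all nuclei. In the basal set Msx1 ran from -0.608 to 0.467 and Msx2 from -0.452 to 0.856. The Pth1r region at 37.3 kb ran from -0.282 to 0.0766 and was 0.00427 with the higher minimum. Promoter regions ran from -0.226 to 0.197 for Msx2, -0.203 to 0.523 for Pth1r, -0.142 to 0.0384 for Tbx2, and -0.0214 to 0.101 and -0.101 to 0.438 for the 2 of Msx1. The Msx2 promoter region was 0.0144 with the higher minimum and 0.0142 with the replicate block. All 70 other fits of 10 motif columns (Tbx2, Tbx3, Msx1, Msx2, Mga, Dlx3, Dlx5, Nfkb1, Rela and Lef1) kept their direction and side of the threshold. Counts of under 20 reads stand behind 60 of the 240 levels by cluster and library, 21 of 30 for Msx2 and 15 of 30 for Msx1, and behind the closed regions near both, and counting intervals cover counting error only.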
